A study of Drosophila melanogaster with 2 samples.

Results

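The genes that encode the subunits of the proteasome were examined for peaks of Pleiohomeotic (Pho) in embryos of Drosophila melanogaster. Members were the protein-coding genes of the dm6 annotation with a symbol that starts with Prosalpha or Prosbeta, or with Rpn or Rpt and a digit. The rule found 48 genes of 13945. Of these, 16 are testis-type paralogs, whose symbols end in T, T1, T2, R, R1 or R2, and 32 are general subunits: 14 of the core particle (7 Prosalpha and 7 Prosbeta genes) and 18 of the cap (6 Rpt and 12 Rpn genes). The symbol rule does not take in Sem1, a small lid subunit, which is described with the other genes of the pathway.

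All chromatin came from 1 group of whole embryos, of mixed sex and 0 to 24 h old, of a transgenic pho-GFP line that stably expresses Pho with GFP at its C terminus. The antibody field of the labels names pho, whereas the description states that the precipitation used an antibody against GFP. There were 2 biological replicates, numbered 3 and 4, and no second condition. Libraries of untagged embryos were not analysed here, and the labels do not give the promoter that drives the transgene or the state of the unmodified pho gene. Peaks are an average over all cell types of the embryo, and a peak in few cells cannot be told apart from a weak one in many.

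The proteasome degrades proteins that carry ubiquitin chains. Its core particle is a barrel in which outer rings of alpha subunits gate the entry and inner rings of beta subunits hold the proteolytic sites, of which Prosbeta1, Prosbeta2 and Prosbeta5 encode the catalytic subunits. The cap, or regulatory particle, recognises, unfolds and feeds in substrates: its base holds the Rpt ATPases, the scaffold subunits Rpn1 and Rpn2 and the ubiquitin receptor Rpn13, and its lid holds the deubiquitinating enzyme Rpn11. Several fly subunits have a second gene that is used in the male germline, such as Prosalpha6T, which is needed for sperm development. Pho is a zinc finger protein of the Polycomb group that recognises DNA directly, with GCCAT as the core of its site, and recruits Polycomb complexes to Hox genes.

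The authors deposited an optimal list of 4293 peaks and relaxed lists of 30000 entries each for replicate 3, replicate 4 and the pooled reads of both. A gene is called occupied below when a summit of the optimal list lay within 1000 bp of 1 of its annotated starts. The signal value is the authors' own value of a peak. It has no common scale across lists, so ranks within a list (1 is the strongest) are given beside it. In the optimal list it ranged between 91.9 and 2583 with a median of 145.

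The DNA upstream of the first start is shown for the cap genes around which the results turn, so that the position of each summit and each short word can be read. Each stretch runs from the neighbouring annotated exon, or from 300 bp upstream, to the last base before the start, 5′ to 3′ in the direction of the gene, and was read from the RefSeq genome sequence of release 6, the same build as dm6. The stretch of Rpn5 is chr3R:5789385-5789492 on the plus strand, that of Rpt5 is chr3R:23752835-23752875 on the plus strand, and that of Rpt6 is chrX:21315870-21316051 on the plus strand. The stretch of Rpn2 is chr3R:29153267-29153523 on the plus strand, that of Rpn12 is chr3L:16582768-16583027 on the plus strand, and that of Rpt3 is chrX:11124801-11125100 on the plus strand. The stretch of Rpn3 is chr2L:19051613-19051789 on the plus strand. Capitals mark matches on either strand to 5 short words. GCCAT is the Pho core, shown as ATGGC where it lies on the opposite strand. TATCGATA is the site of the promoter factor DREF, and CGATAG is a word like it, shown as CTATCG on the opposite strand. TATAAA is the TATA box, shown as TTTATA on the opposite strand. CAGCTG is an E-box.
Rpn5: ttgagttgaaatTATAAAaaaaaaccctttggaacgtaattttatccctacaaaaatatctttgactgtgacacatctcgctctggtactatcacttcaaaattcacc
Rpt5: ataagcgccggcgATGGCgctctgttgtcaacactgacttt
Rpt6: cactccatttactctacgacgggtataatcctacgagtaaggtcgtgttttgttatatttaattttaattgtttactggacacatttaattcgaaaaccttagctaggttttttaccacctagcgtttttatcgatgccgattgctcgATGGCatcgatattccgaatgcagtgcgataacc
Rpn2: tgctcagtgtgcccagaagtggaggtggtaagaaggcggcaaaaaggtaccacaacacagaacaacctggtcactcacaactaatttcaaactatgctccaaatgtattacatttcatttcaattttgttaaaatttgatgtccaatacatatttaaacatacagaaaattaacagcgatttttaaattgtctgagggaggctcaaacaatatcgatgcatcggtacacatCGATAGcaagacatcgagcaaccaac
Rpn12: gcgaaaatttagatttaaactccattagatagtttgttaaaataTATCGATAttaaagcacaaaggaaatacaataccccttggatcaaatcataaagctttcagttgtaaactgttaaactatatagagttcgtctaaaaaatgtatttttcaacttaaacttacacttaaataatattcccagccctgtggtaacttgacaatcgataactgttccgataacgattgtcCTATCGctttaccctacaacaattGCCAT
Rpt3: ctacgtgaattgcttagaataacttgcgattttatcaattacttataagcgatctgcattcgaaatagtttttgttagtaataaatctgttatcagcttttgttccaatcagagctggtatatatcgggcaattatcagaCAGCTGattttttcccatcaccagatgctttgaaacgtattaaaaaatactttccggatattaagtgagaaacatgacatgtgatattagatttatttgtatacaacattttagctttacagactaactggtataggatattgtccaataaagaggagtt
Rpn3: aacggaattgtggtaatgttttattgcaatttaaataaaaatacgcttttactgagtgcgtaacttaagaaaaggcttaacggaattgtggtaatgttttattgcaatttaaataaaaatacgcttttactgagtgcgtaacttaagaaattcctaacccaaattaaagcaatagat

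The optimal summit fell on base 79 of the Rpn5 stretch (its weaker summit), base 24 of that of Rpt5, base 140 of Rpt6, base 117 of Rpn2, base 157 of Rpn12 and base 115 of Rpt3. In Rpt5 and Rpt6 the capitals ATGGC, the Pho core read on the opposite strand, lay next to the optimal summit. The middle of the word was 8 bp from that summit in Rpt5 and 11 bp in Rpt6. At Rpt5 the summit of replicate 3 lay 44 bp from the optimal one and that of replicate 4 lay 1 bp from it. At Rpt6 these distances were 5 and 14 bp. The labels give fragments of 200 to 800 bp, so such distances are much shorter than a fragment. The stretch of Rpn3 holds no capitals and consists mostly of a tandem repeat, in which a run of 72 bases that starts at base 1 occurs again from base 79. The summit of Rpn3 lay downstream of this stretch.

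Genes without an optimal summit are shown for contrast, chosen as a catalytic and a structural subunit of the core, an alpha subunit and an ATPase of the cap. The stretch of Prosbeta2 is chr3L:14999667-14999950 on the plus strand, that of Prosbeta3 is chr3R:9006227-9006455 on the minus strand, that of Prosalpha6 is chr2L:10221217-10221350 on the plus strand, and that of Rpt4 is chrX:6291246-6291302 on the minus strand. Capitals mark the same words and, in Prosbeta3, also GGTCACACT and TGACNNNGC, of which the second match to TGACNNNGC overlaps GGTCACACT.
Prosbeta2: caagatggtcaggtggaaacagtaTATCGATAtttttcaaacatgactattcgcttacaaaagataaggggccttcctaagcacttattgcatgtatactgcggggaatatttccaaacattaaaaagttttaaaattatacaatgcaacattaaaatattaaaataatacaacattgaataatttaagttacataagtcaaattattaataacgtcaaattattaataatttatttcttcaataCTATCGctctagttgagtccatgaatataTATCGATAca
Prosbeta3: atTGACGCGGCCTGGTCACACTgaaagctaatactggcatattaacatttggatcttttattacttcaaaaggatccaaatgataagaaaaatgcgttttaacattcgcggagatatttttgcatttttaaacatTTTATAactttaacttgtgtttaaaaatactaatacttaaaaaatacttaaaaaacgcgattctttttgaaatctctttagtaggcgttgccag
Prosalpha6: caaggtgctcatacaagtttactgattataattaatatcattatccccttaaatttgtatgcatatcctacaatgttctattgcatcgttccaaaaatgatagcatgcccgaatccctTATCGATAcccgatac
Rpt4: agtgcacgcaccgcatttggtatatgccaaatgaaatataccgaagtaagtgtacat

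The stretch of Prosbeta2 holds TATCGATA at bases 25 and 275 and the stretch of Prosalpha6 holds it at base 119, although neither gene had an optimal summit. In Prosbeta3 the match to GGTCACACT starts at base 14. The stretch of Rpt4, only 57 bp between its start and that of mldr, holds none of the words. GCCAT is absent from all the contrast stretches shown. The stretch of Rpn1, which is not shown and has no optimal summit either, holds it at base 202.

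An optimal summit lay within 1000 bp of a start for 12 of the 48 proteasome genes (25%), against 26.1% of all 13945 protein-coding genes. The share over the whole family was therefore near the background, but its members divided unequally. None of the 16 testis-type genes was occupied, against 12 of the 32 general ones (37.5%). Among the general genes, 2 of 14 core genes (14.3%) and 10 of 18 cap genes (55.6%) were occupied. The 2 sides differ in annotation: 12 of the 14 core genes (85.7%) and 10 of the 18 cap genes (55.6%) had a single start. The median gene length was 1201 bp in the core and 1762 bp in the cap. With only the first start of each gene, 2 core and 9 cap genes were occupied, and the share of all genes was not computed for this setting. Whether starts or length bear on the difference was not tested. Within the core, 1 of 7 alpha genes and 1 of 7 beta genes had a summit. Within the cap, 3 of 6 Rpt genes, 5 of the 8 lid Rpn genes and 2 of the 3 base Rpn genes had one. These are counts over the complete groups, and no test was made on them, since genes of 1 complex are not replicates and the members were chosen with earlier results known.

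**Figure D1:**
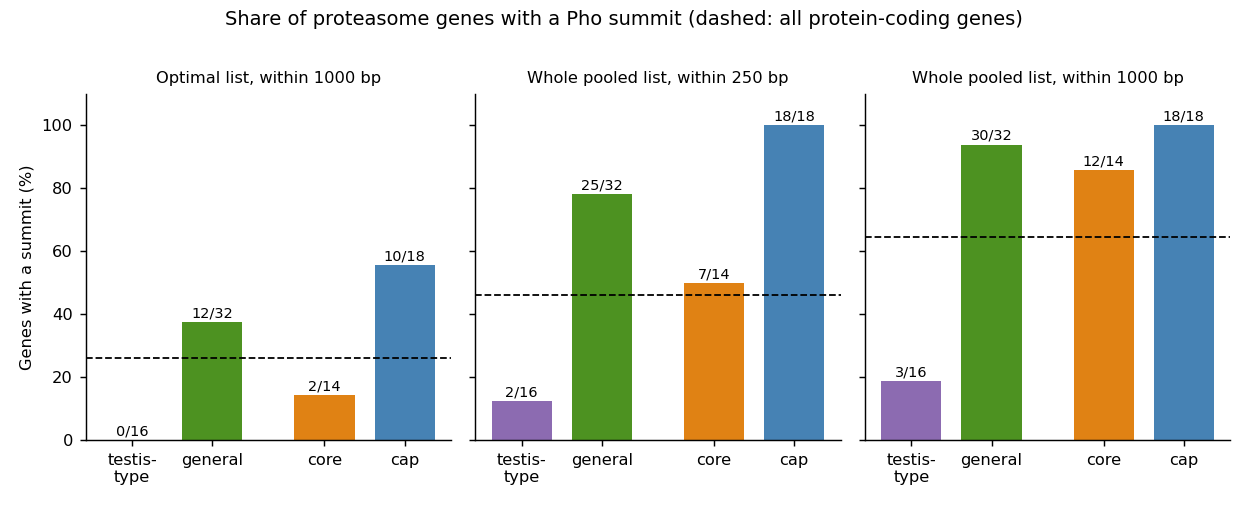
Share of genes with a summit (vertical axis, percent) among testis-type, general, general core and general cap genes, for the optimal list within 1000 bp and the whole pooled list within 250 and 1000 bp, with the number of genes above each bar; the dashed line is the share of all protein-coding genes. In each panel the testis-type bar is below the line and the cap bar is the highest, at 10 of 18, 18 of 18 and 18 of 18 genes. Within 250 bp the cap count includes Rpn7 and Rpt2 through entries near the end of the pooled list.

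Of the core genes, 2 had an optimal summit, 1 of them near the lower end of the list. Prosbeta1, which encodes the subunit with caspase-like activity, had the stronger one (chr2R:16014647-16015082, summit 78 bp upstream). Its signal value was 133 in the optimal list (rank 2465), 58.7 in replicate 3 (rank 4118) and 67.9 in replicate 4 (rank 1685). Prosalpha7, of the alpha ring, had a summit 7 bp downstream of its start, in its 5′ UTR (chr2R:9847611-9848046). Its signal value was 97.4 in the optimal list (rank 3913), 66.2 in replicate 3 (rank 3442) and 27.4 in replicate 4 (rank 7543). Prosalpha7 was thus past rank 4293 in replicate 4. The core count depended on the library: the 4293 strongest entries of replicate 3 alone gave 3 core genes, Prosbeta5 being added at rank 4221, and those of replicate 4 alone gave 1, Prosbeta1.

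The remaining core genes had weaker entries or none. For genes without an optimal summit, a replicate's value is that of its strongest entry within 1000 bp, which need not be the site of the pooled entry. Prosbeta5, the chymotrypsin-like catalytic subunit, came closest, with a pooled signal of 80.3 at 49 bp from its start (rank 5228), 57.7 in replicate 3 and 19.1 in replicate 4 (rank 14946). Prosbeta2, the trypsin-like subunit, had a pooled signal of 35.1 at rank 17643, 737 bp upstream. Of the catalytic genes, Prosbeta1 was therefore the only one with an optimal summit. Prosbeta3 (pooled signal 63.4, 496 bp downstream), Prosbeta7 (40.4, 1 bp) and Prosbeta6 (37.4, 330 bp, no entry in replicate 4) were lower in the list. In the alpha ring, pooled signal values were 66.0 for Prosalpha5, 65.5 for Prosalpha2, 62.1 for Prosalpha6, 61.5 for Prosalpha4 and 49.0 for Prosalpha3. Those of Prosalpha5 and Prosalpha4 lay 616 and 822 bp from the start, and those of Prosalpha2, Prosalpha3 and Prosalpha6 within 250 bp upstream. Prosalpha1 and Prosbeta4 had no entry within 1000 bp of a start in any list.

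The lid of the cap held the strongest peak of the family. Rpn5, a scaffold subunit of the lid, had 2 overlapping optimal peaks, both in both replicates. The stronger one (chr3R:5789039-5789474, summit 236 bp upstream) had a signal value of 455 in the optimal list (rank 220), 281 in replicate 3 (rank 211) and 179 in replicate 4 (rank 237). The further one (chr3R:5789245-5789680, 30 bp upstream) had 176 in the optimal list, 124 in replicate 3 and 101 in replicate 4. The stronger summit lay in an intron of the divergent gene Hat1, a histone acetyltransferase gene, 127 bp from the start of Hat1, and the further one between the 2 starts.

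Rpn6, another lid scaffold gene, had an optimal signal of 301 (rank 573), with 200 in replicate 3 (rank 464) and 98.3 in replicate 4 (rank 830). The peak was at chr2R:14752280-14752436, with its summit in an intron of Rpn6, 127 bp upstream of the later of its 2 annotated starts. Rpn3, also of the lid, had 255 (rank 765), with 163 in replicate 3 (rank 699) and 97.0 in replicate 4 (rank 852), in a peak at chr2L:19051758-19051883 with its summit 23 bp downstream of a start. For Rpn5, Rpn6 and Rpn3 the rank was within the first 1000 in all lists, so their place near the top did not depend on 1 replicate. The peaks of Rpn6 and Rpn3 were 157 and 126 bp wide, narrower than the 436 bp of the other members' peaks.

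Rpn12 and Rpn8 were the other occupied lid genes. Rpn12 had a summit 104 bp upstream (chr3L:16582706-16583141), with a signal value of 143 in the optimal list (rank 2205), 84.3 in replicate 3 (rank 2339) and 31.1 at the same summit in replicate 4 (rank 6021). Replicate 4 had a stronger entry at 262 bp upstream of Rpn12, with a signal of 54.9. Rpn8, the partner of the deubiquitinating enzyme, had the weakest occupied start of the family (chr2R:24402566-24403001). Its signal was 96.4 in the optimal list (rank 3972), 72.4 in replicate 3 (rank 2981) and 26.3 in replicate 4 (rank 8156). The summit lay in an intron of Rpn8, 221 bp upstream of the later of its 2 annotated starts. It was not within 1000 bp of the first start.

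The lid genes left outside were Rpn11, Rpn9 and Rpn7. Rpn11, which removes ubiquitin chains from substrates, was just outside the optimal list, at pooled rank 4354 with a signal of 91.2, 33 bp upstream, and had 44.6 in replicate 3 (rank 6131) and 43.4 in replicate 4 (rank 3455). The last optimal peak had 91.9, so Rpn11 and Rpn8, at 91.2 and 96.4, lie on either side of a threshold that barely separates them. Rpn9 had a pooled signal of 54.3, with 40.4 in replicate 3 and 19.2 in replicate 4, and Rpn7 had no entry in replicate 4. At Rpn7 the pooled signal was 32.1 at 942 bp downstream, where replicate 3 had 18.9, and the strongest entry of replicate 3 was another one, with 24.0 at 148 bp upstream.

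In the base, the ubiquitin receptor gene Rpn13 had 2 optimal summits. The one at chr2R:13960251-13960686, 65 bp upstream, had a signal value of 254 (rank 769), with 171 in replicate 3 (rank 639) and 83.8 in replicate 4 (rank 1156). The further one, at chr2R:13960453-13960888, had 141 in the optimal list and lay 4 bp from the start of CtsL1, which encodes a lysosomal cathepsin. Rpn2, a large scaffold subunit, had 189 in the optimal list (rank 1354), 102 in replicate 3 (rank 1691) and 82.8 in replicate 4 (rank 1178), at chr3R:29153165-29153600 with the summit 141 bp upstream. Rpn1, the other large scaffold subunit, was just outside, with a pooled signal of 87.0 (rank 4659), 52.5 in replicate 3 and 37.0 in replicate 4. Rpn10, a ubiquitin receptor between base and lid, had a pooled signal of 78.0 (rank 5460), 54.0 in replicate 3 and 40.3 in replicate 4. The 40.3 of Rpn10 belonged to an entry 999 bp from the start, at the edge of the window.

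Of the ATPase ring, Rpt5 had the strongest peak (chr3R:23752640-23753075, 18 bp upstream), with a signal value of 215 in the optimal list (rank 1051), 95.9 in replicate 3 (rank 1869) and 118 in replicate 4 (rank 598). Rpt3 followed (chrX:11124697-11125132, 186 bp upstream), with 113 (rank 3148), 59.0 in replicate 3 (rank 4068) and 50.4 in replicate 4 (rank 2753). Rpt6 had 98.8 (rank 3839), 64.4 in replicate 3 (rank 3588) and 31.6 in replicate 4 (rank 5874), at chrX:21315791-21316226 with the summit 43 bp upstream. The start and the summit of Rpt6 lie in an intron of CG1801, a gene on the opposite strand whose first exon overlaps Rpt6 further downstream. The other ATPase genes had pooled signal values of 53.7 for Rpt4, 46.9 for Rpt2 and 45.8 for Rpt1. The entry with 46.9 lay 532 bp downstream of the start of Rpt2, and the one 23 bp upstream had 28.8. Among the ATPase genes the replicates differed most in rank for Rpt4, which had 17.7 in replicate 3 (rank 23473) and 36.2 in replicate 4 (rank 4676).

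**Figure D2:**
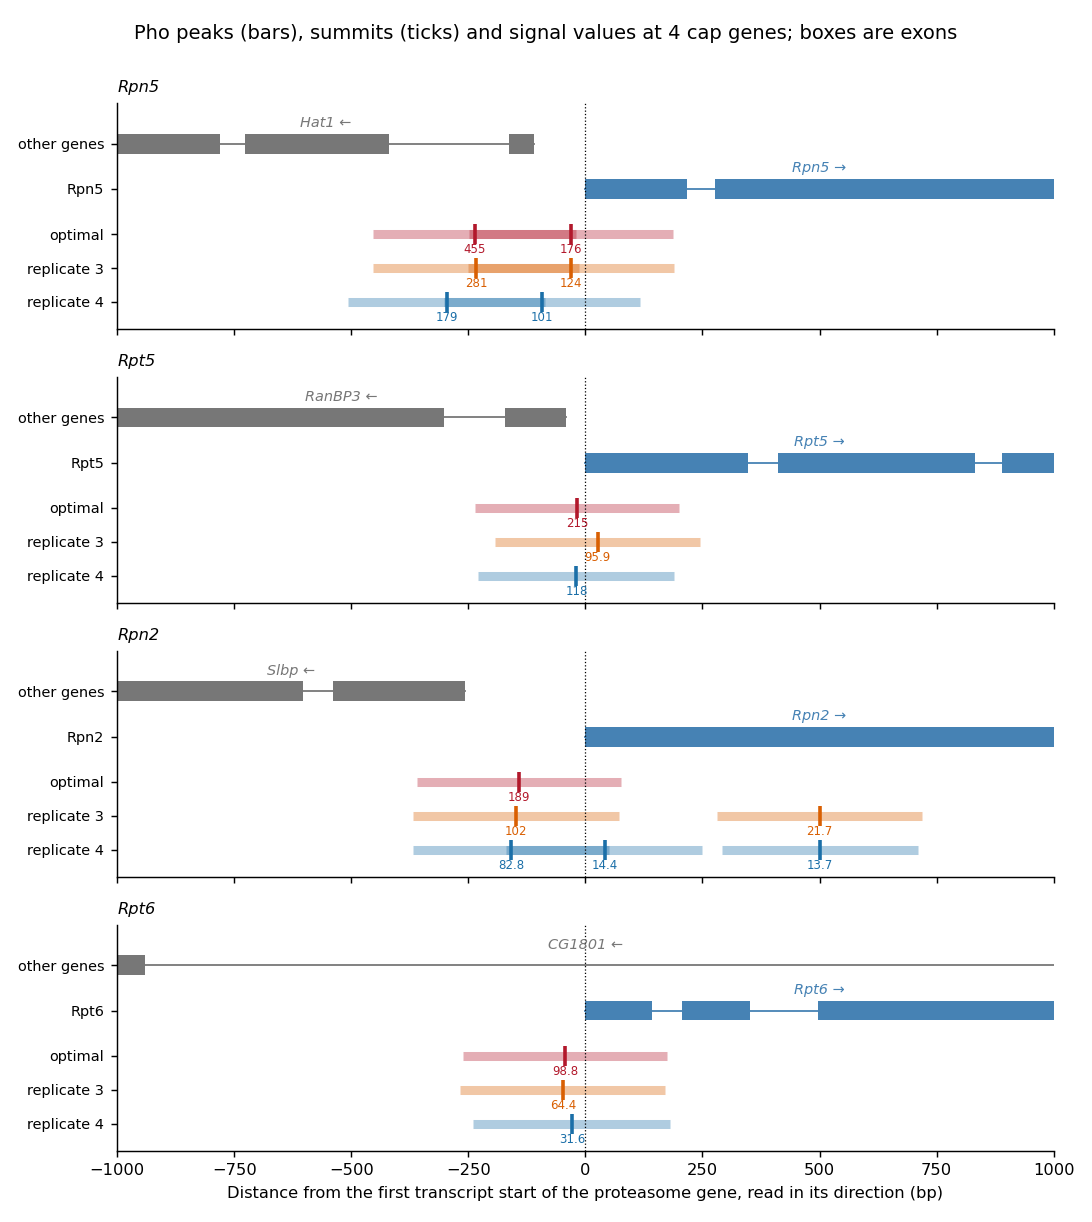
Peaks (bars), summits (ticks) and signal values of the optimal list and of both replicates around Rpn5, Rpt5, Rpn2 and Rpt6, with the exons of each gene and its neighbours (boxes), by distance from the first start in bp, read in the direction of the proteasome gene. At Rpn5 the stronger of 2 optimal summits lies in an intron of Hat1 (signal 455), at Rpt5 and Rpn2 the summit lies between the divergent starts, and the start and summit of Rpt6 lie in an intron of CG1801.

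The occupied starts were close to their summits. All 12 had their strongest summit within 250 bp, against 69.0% of all occupied protein-coding genes. Within that distance 12 of the 48 members (25%) were called, against 19.2% of all protein-coding genes. The median distance of the strongest summit from the start was 91.0 bp, against 146 bp for all 3642 occupied protein-coding genes, and 6 of 12 (50%) were within 100 bp, against 36.2% of all occupied genes. The peaks were of ordinary height for the list: the median signal value was 166 for the occupied members, against 162 for all occupied genes, and the median rank was 1780, against 1801. The 2 occupied core genes had a median signal of 115 and the 10 occupied cap genes one of 202.

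**Figure D3:**
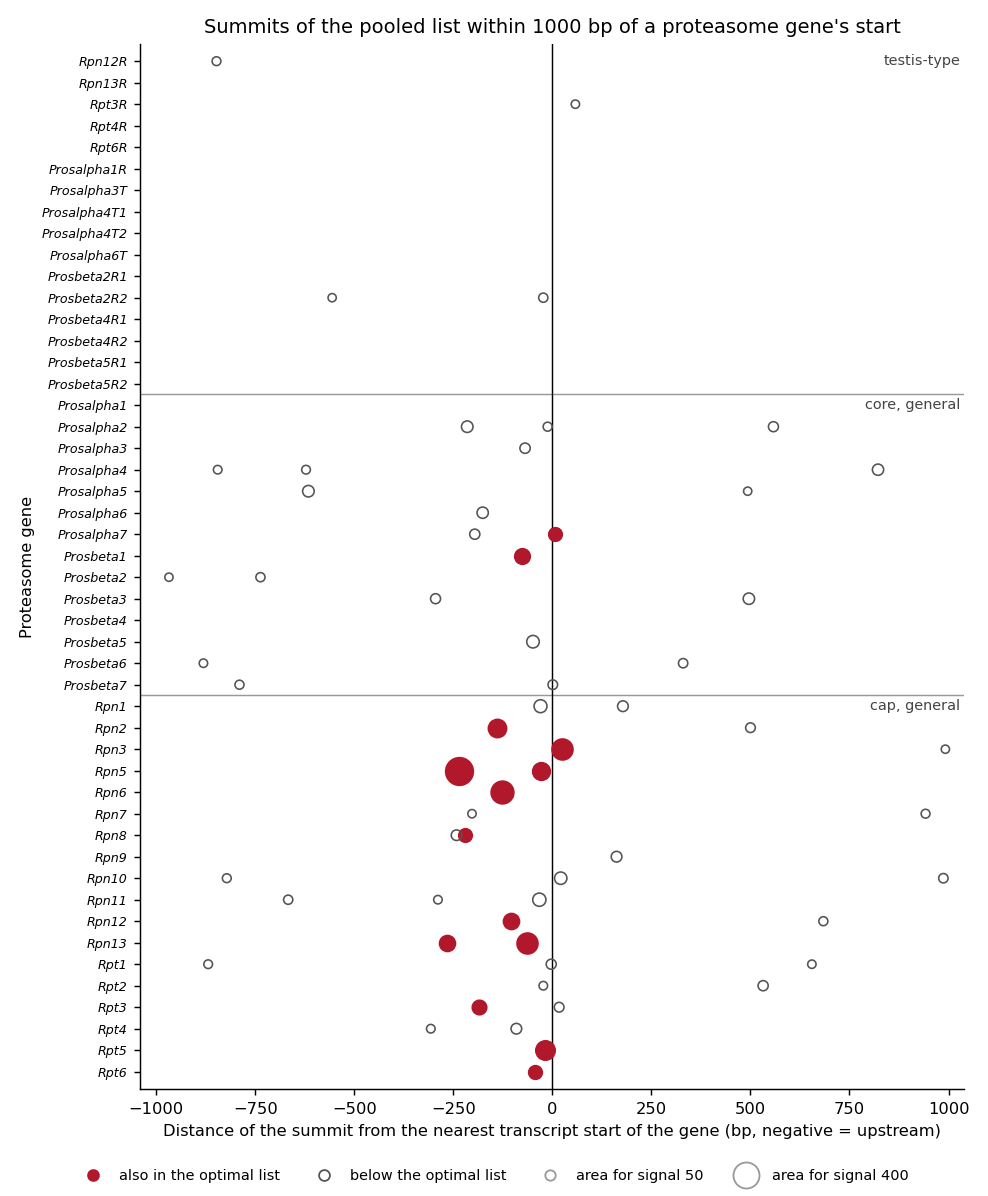
Distance of each pooled-list summit from the nearest start of the gene (horizontal axis, bp, negative upstream) for the 48 proteasome genes, with circle area growing with the signal value and filled circles for summits that are also in the optimal list. Filled circles lie between 267 bp upstream and 23 bp downstream, 2 are at core genes and 12 at cap genes, and the testis-type rows hold only small open circles.

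Below the optimal threshold, general genes nearly all had an entry. In the relaxed pooled list, 12 of the 14 general core genes and 18 of the 18 cap genes had a summit within 1000 bp, against 64.5% of all protein-coding genes. Relaxed lists hold background as well as peaks. Within 250 bp the counts were 7 of 14 core genes and 18 of 18 cap genes, against 46.0% of all genes. At Rpn7 and Rpt2 the only pooled entries within 250 bp had 26.7 and 28.8, near the lowest listed value of 24.7. Replicate 4 had no entry within 250 bp of either gene. In the full list the core was thus above the share of all genes within 1000 bp and near it within 250 bp, and the cap was above it at both distances. The median rank in the pooled list was 7475 for the core genes and 3906 for the cap genes, against 14560 for all protein-coding genes, with a gene without an entry counted as past the end of the list.

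**Figure D4:**
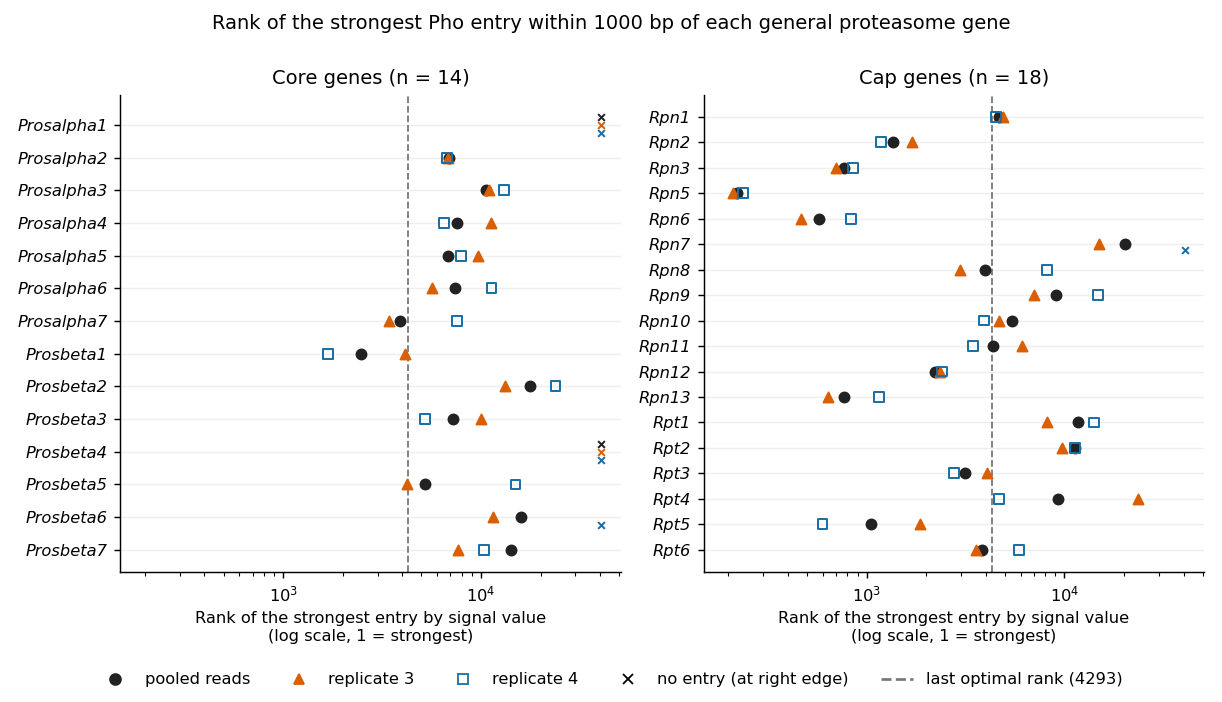
Rank of the strongest entry within 1000 bp of a start (log scale, 1 is the strongest) in the lists of pooled reads, replicate 3 and replicate 4 for the 14 core and 18 cap genes; the dashed line is the last optimal rank, 4293, and crosses mark genes with no entry. In the pooled list 2 core genes and 10 cap genes lie left of the line, and Rpn5 is the strongest in all lists.

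Both replicates listed the peaks of the occupied genes. Each of the 12 strongest summits had a summit within 100 bp in both replicate lists, as had 94.4% of all optimal peaks. Only the 4293 strongest entries of a replicate were then kept. Replicate 3 gave 13 of the 48 members (27.1%), against 26.2% of all genes. Replicate 4 gave 11 of the 48 (22.9%), against 25.5% of all genes. In replicate 4, Rpn10 (through its entry at 999 bp) and Rpn11 came in, while Rpn8, Rpt6 and Prosalpha7 dropped out. Genes called in both were Rpn2, Rpn3, Rpn5, Rpn6, Rpn12, Rpn13, Rpt3, Rpt5 and Prosbeta1, which is 9 of 48, against 21.8% of all genes. Rpn12 counts in replicate 4 through its entry 262 bp upstream. The cap count was 10 in either replicate. The strongest entry of a gene need not be the same site in both lists. At Rpt1 it lay 1 bp downstream in replicate 3 and 773 bp upstream in replicate 4. Over the 28 general genes with an entry in both lists, the Spearman correlation of the strongest signal within 1000 bp was 0.69. This is a description across genes that share libraries and a control, and genes are not independent replicates. The lists are not independent either, since both replicates were called against the same control file.

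**Figure D5:**
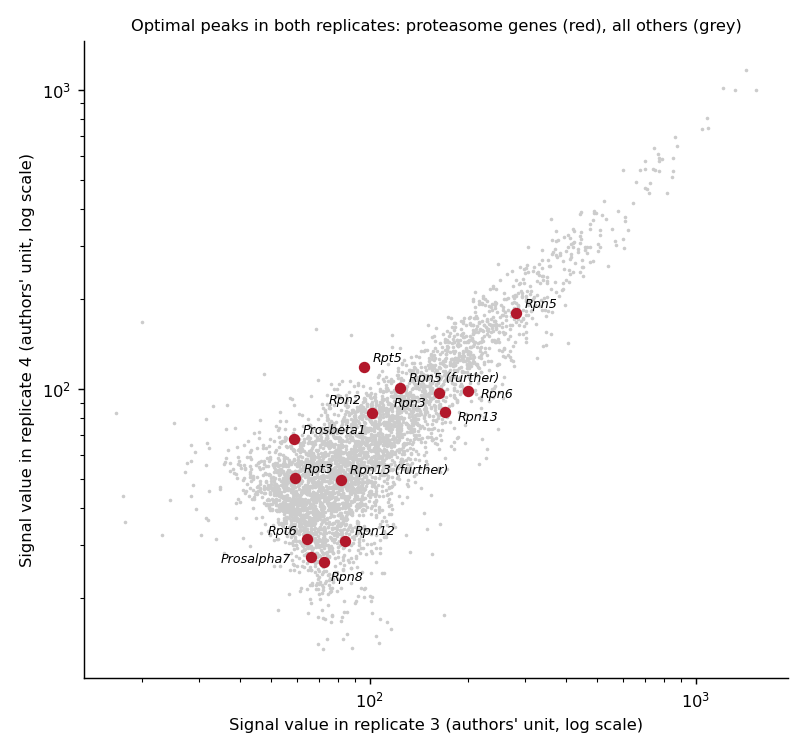
Signal value in replicate 3 (horizontal) and replicate 4 (vertical), both on log scales in the authors' unit, for the optimal peaks with a summit within 100 bp in both replicates; red points are peaks at proteasome genes and grey points all others. The red points lie within the cloud of all peaks, between 58.7 (Prosbeta1) and 281 (Rpn5) in replicate 3 and between 26.3 (Rpn8) and 179 (Rpn5) in replicate 4.

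The testis-type paralogs had hardly any entry. Of the 16, only Rpn12R, Rpt3R and Prosbeta2R2 had a summit within 1000 bp in the relaxed pooled list, against 30 of the 32 general genes. Prosbeta2R2 was the only paralog with an entry in both replicate lists, against 28 of the 32 general genes and 55.9% of all genes. Its pooled signal was 35.8 at 23 bp upstream, with 14.8 in replicate 3 (41 bp downstream) and 20.7 in replicate 4 (19 bp downstream). Replicate 4 had a stronger entry at 565 bp upstream of Prosbeta2R2, with a signal of 25.8. Its general counterpart Prosbeta2 had a like pooled signal, 35.1, but 737 bp upstream. The lowest values listed at all were 24.7 in the pooled list, 14.8 in replicate 3 and 12.9 in replicate 4. In rank, the strongest entries of Prosbeta2R2 stood at 17069 in the pooled list, 29961 in replicate 3 and 8413 in replicate 4, of 30000 each.

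Since no paralog was occupied, a paralog of an occupied gene is lower by the way such pairs are picked, and the values are given as a description. The pooled signal was 31.7 at Rpn12R (848 bp upstream), against 143 at Rpn12, and 26.7 at Rpt3R, against 113 at Rpt3. Rpn13R and Rpt6R had no entry in the pooled list, against 254 at Rpn13 and 98.8 at Rpt6. Prosbeta2R1 had 1 entry, in replicate 4 alone (15.0). Rpt4R, Prosalpha1R, Prosalpha3T, Prosalpha4T1, Prosalpha4T2, Prosalpha6T, Prosbeta4R1, Prosbeta4R2, Prosbeta5R1 and Prosbeta5R2 had none in any list. The nearest optimal summit was 2007 to 72899 bp away from the testis-type genes (median 21876 bp), against 7 to 20315 bp for the general genes (median 2595 bp) and a median of 6358 bp over all protein-coding genes.

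Many of the occupied genes share their promoter region with a neighbour. The summits of 10 of the 12 (83.3%) also lay within 1000 bp of the start of another protein-coding gene, against 64.0% of all occupied genes. These neighbours were Slbp (Rpn2), l(2)37Bb (Rpn3), Hat1 (Rpn5), ave (Rpn6), Slik (Rpn8), CtsL1 (Rpn13), CG11122 (Rpt3), RanBP3 (Rpt5), CG1671 (Prosalpha7) and Rrp42 (Prosbeta1). The summit was nearer to the start of the neighbour for Rpn2 (117 bp from Slbp), Rpn6 (123 bp from ave), Rpn8 (104 bp from Slik), Prosbeta1 (43 bp from Rrp42) and, for its stronger summit, Rpn5 (127 bp from Hat1). When a summit was given only to its nearest start, 8 members were left (Rpn3, Rpn5, Rpn12, Rpn13, Rpt3, Rpt5, Rpt6 and Prosalpha7), which is 16.7% of 48, against 18.7% of all genes. Only Rpn12 and Rpt6 had a summit with no other start in reach.

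A divergent arrangement, with the start of an opposite-strand gene within 500 bp upstream, was present at 21 of the 32 general genes (65.6%), against 27.4% of all protein-coding genes. Of the general genes with such a neighbour 10 of 21 (47.6%) were occupied, against 48.9% of all genes with one. Of those without, 2 of 11 (18.2%) were occupied, against 17.5% of all genes without one. Within each class, general proteasome genes were therefore occupied about as often as any gene of that class. The arrangement was as frequent in the core (9 of 14, 64.3%) as in the cap (12 of 18, 66.7%). With a divergent neighbour 2 of 9 core genes and 8 of 12 cap genes were occupied, and without one 0 of 5 core genes and 2 of 6 cap genes. The share of the cap was the higher one in both classes, on few genes in the second. Among testis-type genes 3 had a divergent neighbour (Rpt3R, Prosalpha1R and Prosbeta2R2) and none of these was occupied.

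The letters of the promoters were searched for 7 words on both strands, between 250 bp before and 50 bp after the first start. For Rpn6 and Rpn8, which are occupied at a later start, this window does not hold the summit. TATCGATA, the site of the factor DREF, which acts at many housekeeping promoters, was found at 0 of 16 testis-type and 12 of 32 general genes (37.5%), against 9.36% of all protein-coding genes. It occurred at 5 of 12 occupied and 7 of 20 other general genes, against 14.6% of all occupied protein-coding genes. Core and cap had it at 6 of 14 and 6 of 18 genes. The word was therefore frequent in general subunit genes, with like shares in occupied and unoccupied ones. CGATAG, which overlaps TATCGATA by 5 bases, was found at 2 of 16 testis-type and 12 of 32 general genes, against 19.5% of all genes.

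GCCAT, the Pho core, was found at 9 of 16 testis-type promoters (56.2%) and 10 of 32 general ones (31.2%), against 41.2% of all promoters. It was present at 5 of 12 occupied genes (41.7%) and 5 of 20 other general genes (25%), against 39.9% of all occupied protein-coding genes. Rpn6 counts among these occupied genes through the window at its first start, away from its summit. Within 50 bp of the summit it lay at 3 of the 14 optimal summits of members (Rpn5, Rpt5 and Rpt6, 21.4%), against 15.8% of all 4293 optimal summits. GGTCACACT, the site of the factor M1BP, was found at 0 of 12 occupied and 5 of 20 other general genes (Rpn1, Rpn7, Prosalpha2, Prosalpha4 and Prosbeta3). Its share was 9.86% of all occupied protein-coding genes and 6.05% of all genes, so the split among members went the other way, on few genes. TGACNNNGC was found at 1 of 16 testis-type and 5 of 32 general promoters, against 8.63% of all genes. CAGCTG was found at 1 of 16 testis-type and 1 of 32 general promoters, against 17.7%, and TATAAA at 5 of 16 testis-type and 13 of 32 general promoters, against 45.8%. Median GC content of the promoters was 32.7% in testis-type and 33.5% in general genes, against 38.0% over all genes.

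Other genes of the ubiquitin pathway that are no subunits by symbol were taken from a list of 24 symbols, of which 23 were found in the annotation. Of these 17 (73.9%) were occupied, against 26.1% of all protein-coding genes. The strongest peak was that of Hrd3, of the ubiquitin ligase complex for misfolded proteins of the endoplasmic reticulum, 189 bp upstream. It had an optimal signal of 688 (rank 92), 453 in replicate 3 and 238 in replicate 4. Keap1 followed, with 326 (rank 479), 186 in replicate 3 and 140 in replicate 4, but its summit lay 832 bp upstream. The transcription factor cnc, which drives proteasome genes under proteotoxic stress, had 146 (rank 2116). Its partner maf-S had 120, at 690 bp downstream, while Keap1 encodes the inhibitor of cnc. Among partners of the particle, Uch-L5, a deubiquitinase docked on Rpn13, had 146, Pomp, an assembly chaperone of the core, had 121, and PI31, a proteasome binding protein, had 97.0. The ubiquitin genes Ubi-p63E, RpS27A and Ubi-p5E had 245, 145 and 117, and the activating enzyme Uba1 had 128. TER94, the segregase that extracts substrates, had 162 and its cofactor p47 had 155. Pngl had 181, rngo 109, Ubqn 101 and sip3 101. No optimal summit lay within 1000 bp of a start of Sem1, Usp14, REG, Rad23, Npl4 or RpL40. The list was drawn up with earlier results of these data known, its genes are longer than the members (median 2773 bp, against 1390 bp for general members and 2166 bp for all genes), and 12 of the 23 (52.2%) had a single start, against 68.8% of general members.

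Set beside other machines of many subunits, 12 of 32 general proteasome genes (37.5%) were occupied, against 71 of 93 cytoplasmic ribosomal protein genes (76.3%) and 13 of 33 V-ATPase genes (39.4%). RpS27A and RpL40 stand both among the ribosomal protein genes and in the pathway list. The median signal of the occupied genes was 166 for general proteasome genes, against 221 for ribosomal protein genes and 219 for V-ATPase genes. A divergent neighbour was present at 65.6% of general proteasome genes, against 39.8% of ribosomal protein genes and 39.4% of V-ATPase genes.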

How the data were processed

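ChIP-seq peaks of 2 biological replicates of pho-GFP embryos were used. The antibody was against GFP per the description, whereas the antibody field names pho. Per the texts deposited with the lists, each replicate's list came from its alignments and 1 control file, the pooled list from both replicates' alignments and the same control, and the optimal list from these 3. Which aligner, caller, versions and threshold they used is not given in the sources used here. The signal value deposited by the authors with each peak was used to describe and rank peaks within a list, and the optimal list was found to be the 4293 strongest pooled entries. Read depth is unknown. Lists on dm3 were not used.

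Summits were matched to starts of Ensembl release 115 gene models (build as dm6; 1-based) with Python 3.11.15, NumPy 2.4.6 and SciPy 1.17.1, and the matching was tested on simulated data. Named are all occupied members, members with an entry in both replicates, all testis-type members, occupied pathway genes and neighbours with a start within 1000 bp of a summit; others were named after their values were seen. The members, lists and words were chosen with earlier results of these data known. No test was made: there is 1 group. Alternatives changed the distance, the assignment to starts, the list, the replicate and the window for words.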

Additional observations from a re-analysis of the deposited data

How the results depend on the processing

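Of 73 alternative values 54 stayed within 1.5 times or within the spread between replicates, and 19 moved further. The values are counts, median ranks and median signals, which have no sign that could reverse. They also overlap: the counts of all and of general members were equal except with the whole relaxed pooled list. With the optimal list cut at its median signal, 6 members were occupied, of which 6 were general, 0 core and 6 cap genes. The share of all protein-coding genes at this cut was not computed, so these counts have no background beside them. With the whole relaxed pooled list, 33 members were counted (30 general, 3 testis-type, 13 core and 20 cap genes, with testis-type genes among core and cap). With the nearest start only, 1 core gene was left. Leaving out 1 replicate gave 11 to 13 members and 1 to 3 core genes, the lower count without replicate 3. The median signal of the members' summits was 90.1 without replicate 4 and 75.4 without replicate 3, on each list's own scale. The main windows for words were 50 bp to each side of a summit. There TATCGATA was at 2 of 14 members' summits (14.3%), against 3.35% of all optimal summits. CGATAG was at 3 (21.4%), against 9.06%, CAGCTG at 2 (14.3%), against 5.43%, and TGACNNNGC at 0, against 3.26%. In windows of 25 bp to each side, TATCGATA was at 0 of 14 summits, CGATAG at 1 and CAGCTG at 0. In windows of 100 bp, TATCGATA was at 4, CGATAG at 5 and TGACNNNGC at 1. Shares over all optimal summits are given for the main window only. The cause was not tested. No paired analysis was possible because there is only 1 group.

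The limits are those of peak lists. Read depth is unknown, so signal values have no counting error. Whether untagged embryos give the same summits was not analysed here. The relaxed lists each end at 30000 entries, so a gene without an entry may have signal below the last one. Peaks at shared promoters cannot be given to 1 of the genes, and 10 of the 12 occupied members have such a peak.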
